A study of Mus musculus with 24 samples.

Results

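The Hox genes described here are 38 rows of the count table whose names are Hoxa, Hoxb, Hoxc or Hoxd followed by a number alone, out of 51697 named genes. On the mm10 build of the mouse genome, and by the GENCODE vM21 annotation, 10 of them lie on the minus strand of chromosome 6 (HoxA, chr6:52162417-52260880) and 10 on the plus strand of chromosome 11 (HoxB, chr11:96194316-96368256). A further 9 lie on the plus strand of chromosome 15 (HoxC, chr15:102921103-103036852) and 9 on the plus strand of chromosome 2 (HoxD, chr2:74668310-74765142). Their RNA was measured by sequencing in F123, an established line of mouse embryonic stem (ES) cells grown in serum replacement with LIF, in which CTCF carries an auxin-inducible degron (CTCF-AID). All groups carry the tag, and an untagged line given auxin was not analysed here, so the response to auxin as a chemical and the response to loss of the protein cannot be told apart. Where auxin was used, 1 µl of a 500 mM stock was added per ml of medium and renewed every 24 h.

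The libraries form 12 groups of 2. ES cells were collected at 0, 24, 48 and 96 h of auxin. Cells in neural progenitor differentiation were collected on days 2, 4 and 6, each without auxin (control) and with it. The day 4 washout and day 6 washout groups had auxin until that day and were collected 2 days after its removal. The labels do not say whether the replicates are separate cultures, so the spread between libraries may be technical. The p-values below rest on a spread shared by all libraries of a fit, and not on that of the groups compared alone.

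Hox genes encode homeodomain transcription factors that give cells their position along the head-to-tail axis. Within a cluster the genes stand in the order of their paralog numbers, and the low numbers are in general switched on earlier and further forward in the embryo than the high ones. In the developing hindbrain and spinal cord retinoic acid, Wnt and Fgf signals, the latter partly through Cdx factors, open the clusters, which Polycomb complexes hold silent in ES cells. CTCF binds at several places inside the clusters and is known to separate active from silent stretches of chromatin there.

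RefSeq promoter sequences of build GRCm38.p6 matched 22 of the 38 genes by symbol, in 24 windows. Of HoxC only Hoxc4 had a window, and of HoxB only Hoxb1, Hoxb4 and Hoxb8. Hoxc5, Hoxc6, Hoxc8 and Hoxc9 were thus not searched. The 250 bases before each start were searched on both strands for the 12-letter core of the CTCF motif, the Cdx motif TTTATNG and the Hox-Pbx motif TGATNNAT. The CTCF core stood in 0 of the 24 windows, against 2.07% of all 32851 windows of this length. At so low a share 0 of 24 is not unusual, so no contrast is read from it. The Cdx motif stood in 2, Hoxb8 and Hoxd4, against 9.81% of all windows. The Hox-Pbx motif stood in 4, Hoxa2, Hoxb1, Hoxb8 and Hoxd11, against 7.68% of all windows. The windows of 3 genes to which the results below return are printed 5′ to 3′ on the gene's strand. Here and below, a rise or fall under auxin is a difference from controls of the same day, not a change in time. Capitals mark the matches, which did not overlap each other.
Hoxb8, the HoxB gene with the highest level, chr11:96281655-96281904, plus strand: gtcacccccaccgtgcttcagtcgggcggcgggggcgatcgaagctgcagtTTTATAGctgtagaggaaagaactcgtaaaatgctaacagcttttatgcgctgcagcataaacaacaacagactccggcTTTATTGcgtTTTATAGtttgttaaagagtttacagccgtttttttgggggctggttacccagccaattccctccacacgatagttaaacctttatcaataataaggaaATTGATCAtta
Hoxd4, which fell under auxin on days 4 and 6, chr2:74721728-74721977, plus strand: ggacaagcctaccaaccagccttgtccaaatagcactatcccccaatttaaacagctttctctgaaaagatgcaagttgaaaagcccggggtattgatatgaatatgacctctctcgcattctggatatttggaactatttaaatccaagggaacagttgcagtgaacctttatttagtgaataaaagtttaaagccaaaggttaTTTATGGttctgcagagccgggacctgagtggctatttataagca
Hoxa13, which rose under auxin on all 3 days, chr6:52260881-52261130, minus strand: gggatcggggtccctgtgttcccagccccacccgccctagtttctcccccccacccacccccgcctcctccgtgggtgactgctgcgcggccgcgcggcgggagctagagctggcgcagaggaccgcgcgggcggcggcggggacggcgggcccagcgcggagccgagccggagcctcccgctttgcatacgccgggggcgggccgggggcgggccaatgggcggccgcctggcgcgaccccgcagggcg
In the Hoxb8 window the Cdx motif lies 199, 120 and 110 bases before the start on the gene's strand, and a Hox-Pbx match lies 11 bases before it on the opposite strand. In the Hoxd4 window the single Cdx match lies 45 bases before the start, and the Hoxa13 window holds none of the 3 motifs. The start of Hoxd4 is that of RefSeq, which is not the start of its GENCODE gene model. A match describes the letters only.

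Libraries held 24696374 to 72048935 counts. Levels are CPM, the usual normalised read count relative to library size, here after scaling between libraries with the TMM method, and they are compared between genes only per kb of annotated exon. Ctcf RNA ranged from 172 to 287 CPM over the 24 libraries. It was higher with auxin on day 4 (log2 fold change 0.29, SE 0.085, adjusted p = 0.018) and on day 6 (0.34, SE 0.085, adjusted p = 0.0054). RNA values do not measure loss of the protein, on which the degron acts. The marker sums of the labelled cell types differed between the groups. The summed level of 6 ES cell markers was 3070 and 2324 CPM in the ES 0 h libraries, 496 and 498 in the day 4 controls and 281 and 272 in the day 6 controls. With auxin it was 796 and 789 CPM on day 4 and 603 and 576 on day 6. The sum of 7 neural progenitor markers was 247 and 261 CPM in the day 4 controls against 137 and 144 with auxin, and 229.7 and 236 in the day 6 controls against 153 and 161. For 5 neuron markers the day 6 sums were 192 and 206 CPM in controls against 16.1 and 16.4 with auxin. The same 5 summed to 210.1 and 268 CPM in the ES 0 h libraries, 142 and 143 in the day 2 controls and 27.2 and 26.4 in the day 4 controls, so their sum does not separate ES cells from day 6 controls. Markers of other cell types were present too. On day 4 the sum of 7 endoderm markers was 635 and 645 CPM in controls against 740 and 701 with auxin, that of 10 mesoderm or mesenchyme markers 160.1 and 158 against 68.4 and 74.5, and that of 4 neural crest markers 8.04 and 8.77 against 4.82 and 4.69. Of the 7 endoderm markers 3 were higher and 1 lower with auxin at an adjusted p below 0.05 (median log2 fold change 0.07). Of the 10 mesoderm or mesenchyme markers 1 was higher and 6 lower, and of the 4 neural crest markers none was higher and 2 lower. Of all genes 23.5% passed. Lum was at 0 in 3 of the 16 differentiation libraries and Tfap2b in 2, and every other marker had counts in each of them. In bulk RNA, fewer cells of a type and less RNA per cell cannot be told apart. The part of these shifts in the Hox results was not tested.

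In the ES cells the 38 genes together gave 63.2 ± 3.04 CPM (SD, n = 2), and on day 2 without auxin they gave 726 ± 15.2. The HoxA sum was 21.3 ± 0.106 and then 284 ± 4.03 CPM, and the HoxB sum 16.7 ± 2.503 and then 403 ± 10.2. HoxC went from 7.85 ± 0.778 to 23.1 ± 0.184 CPM and HoxD from 17.4 ± 0.149 to 15.6 ± 1.23. In a fit of all 24 libraries 24 of the 38 genes were higher on day 2 and 3 were lower at an adjusted p below 0.05, where 18.2% of all tested genes passed, 10.3% higher and 7.91% lower. The median log2 fold change was 2.70 for the Hox genes and -0.01 for all genes. All 11 genes of paralogs 5 to 8 rose, as did 8 of the 11 of paralogs 1 to 4, the exceptions being Hoxd1, Hoxd3 and Hoxd4. Of the 16 genes of paralogs 9 to 13, 5 rose, 3 fell and 8 did not pass. With the spread taken from the 4 libraries compared alone, 16 genes passed and all were higher, a count given without the share of all genes in that fit.

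Hoxb1, the forward-most HoxB gene and a hindbrain regulator, was at 0.0789 and 0.487 CPM in ES cells and at 87.03 and 88.5 on day 2. The day 2 libraries were far above both ES libraries, with a log2 fold change of 8.04, SE 0.4979, adjusted p = 5.6e-09. Hoxb6 had no count in the ES 0 h libraries and 45.2 and 45.1 CPM on day 2, at least 1122-fold higher against a floor of 3 counts over the group, a bound that covers counting error only. Hoxb8, a trunk gene, went from 0.395 and 0.325 to 75.01 and 80.4 CPM (7.78, SE 0.33, adjusted p = 1.3e-10). Hoxa5, a gene of the neck and upper thorax, went from 2.05 and 0.852 to 70.1 and 74.6 CPM (5.73, SE 0.43, adjusted p = 6e-08), and Hoxa4 from 0.789 and 0.609 to 32.96 and 30.9 (5.54, SE 0.35, adjusted p = 6.6e-09). None of these genes overlapped between ES cells and day 2. The 3 genes that were lower on day 2 all lie at the high-numbered end of the HoxC cluster. Hoxc13, known for its role in hair and nails, was at 4.97 and 5.52 CPM in ES cells and at 1.84 and 1.95 on day 2 (-1.47, SE 0.26, adjusted p = 0.00079). Hoxc12 was at 0.7497 and 0.426 CPM against 0.0682 and 0.1502, and Hoxc11 had 4 and 2 counts in the ES libraries and none on day 2, so both calls rest on few reads. Hoxd13, a digit patterning gene, had its highest level in the ES 0 h libraries at 11.6 and 9.21 CPM and stood at 6.101 and 6.49 on day 2, without passing (-0.72, SE 0.32, adjusted p = 0.12).

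From day 2 to day 4 without auxin 20 of the 38 genes rose and 10 fell, where 52.1% of all genes changed, 27.2% upward and 24.8% downward. In this and the following comparisons of differentiating cells the spread came from the 16 differentiation libraries, whose common dispersion was 0.0051 against 0.0439 for all 24 libraries. The HoxC sum went from 23.1 ± 0.184 to 123 ± 3.68 CPM. Hoxc8, a gene of the brachial spinal cord, went from 1.11 and 0.616 to 38.1 and 38.8 CPM (5.52, SE 0.15, adjusted p = 3.5e-14). Hoxc9, which marks the thoracic cord, went from 0.7498 and 0.796 to 14.6 and 18.3 CPM (4.42, SE 0.18, adjusted p = 2.7e-12), and Hoxc6 from 0.733 and 0.841 to 7.63 and 7.802 (3.30, SE 0.14, adjusted p = 4.2e-12). The day 2 and day 4 libraries of these HoxC genes were far apart. Hoxd4 rose from 0.1704 and 0.105 to 3.66 and 2.97 CPM (4.60, SE 0.44, adjusted p = 1.5e-07) and Hoxd3 from 0.136 and 0.0751 to 1.29 and 1.11 (3.51, SE 0.38, adjusted p = 7.1e-07). Of their annotated exon sequence 52.3% in Hoxd4 and 62.3% in Hoxd3 is shared with genes of the same strand, each other included, so these values are uncertain as separate genes. Hoxb1 fell from 87.03 and 88.5 to 36.9 and 33.7 CPM (-1.30, SE 0.1015, adjusted p = 1.3e-08). Hoxa10, a gene of the lumbar level, fell from 33.8 and 35.4 to 12.02 and 11.9 CPM (-1.52, SE 0.079, adjusted p = 7.6e-11) and Hoxa11 from 8.32 and 7.89 to 0.803 and 1.09 (-3.07, SE 0.2006, adjusted p = 1.3e-09). With the spread of all 24 libraries 11 genes rose and 5 fell. From here on, counts in the fit of all 24 libraries are given without the share of all genes. They show only how the calls depend on the spread.

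From day 4 to day 6, 8 genes were higher and 9 lower, where 26.7% of all genes passed, 13.6% higher and 13.1% lower. Hoxc6 rose further, to 17.9 and 19.1 CPM (1.27, SE 0.1017, adjusted p = 8.8e-08), and Hoxb13 went from 8.83 and 8.39 to 18.8 and 17.95 (1.10, SE 0.095, adjusted p = 2.1e-07). Hoxb1 fell further, to 11.9 and 12.4 CPM (-1.53, SE 0.11, adjusted p = 1.8e-08). Hoxb8 reached its highest level on day 4, with 115 and 116 CPM, and stood at 71.98 and 84.6 on day 6 (-0.55, SE 0.11, adjusted p = 0.0014). The day 4 and day 6 libraries of these genes did not overlap. With the spread of all 24 libraries 1 gene rose and 2 fell.

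Per kb of exon, Hoxa5 had the highest group mean of any of the 38 genes, 50.6 CPM per kb with auxin on day 4. In HoxA it was followed by Hoxa4, whose highest mean was 20.04 CPM per kb in the day 2 controls. In HoxB the highest means were those of Hoxb8 (43.8 CPM per kb, day 4 control) and Hoxb1 (37.8, day 2 control), and in HoxC those of Hoxc8 (17.9, day 6 control) and Hoxc4 (15.7, day 4 control). HoxD was lowest, with 4.64 CPM per kb for Hoxd8 in the day 6 controls and 4.19 for Hoxd13 in ES cells. Hoxc11, Hoxd10, Hoxd11 and Hoxd12 stayed below 1 CPM in every library.

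**Figure D1:**
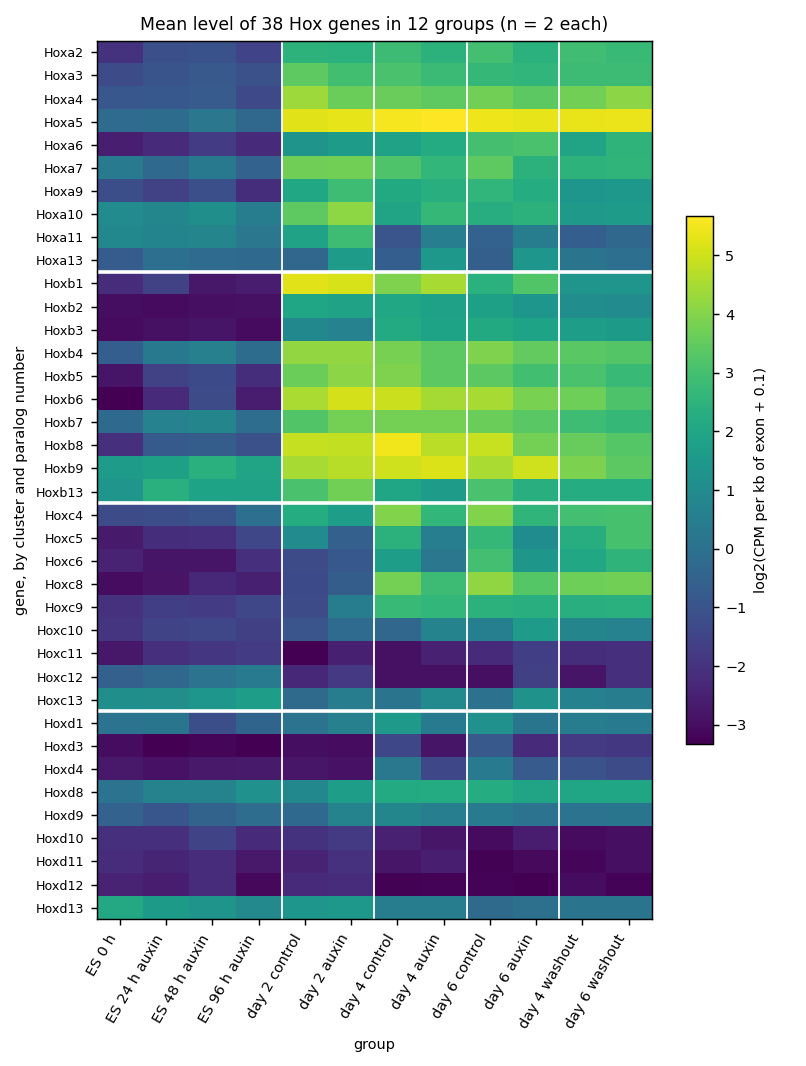
Mean level of each of the 38 Hox genes (rows, by cluster and paralog number) in each of the 12 groups (columns, n = 2 libraries) as log2 of CPM per kb of exon plus 0.1. Hoxa5 is bright in every group from day 2 on and Hoxc8 from day 4 on, Hoxb1 is brightest in the day 2 controls and dim after washout (2.44 and 2.5 CPM per kb), and no HoxD group mean reaches 5 CPM per kb.

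With auxin on day 2 the genes at the high-numbered end were mostly higher. Of the 38 genes 15 were higher and 4 lower than in the day 2 controls, where 18.3% of all genes passed, 9.84% higher and 8.43% lower. By paralog number, 10 of 16 genes of numbers 9 to 13 rose and none fell. Of the 11 genes of numbers 5 to 8, 5 rose and 1 fell, and of the 11 of numbers 1 to 4 none rose and 3 fell. The Hox median was 0.43 and that of all genes 0.02. The HoxA sum was 284 ± 4.03 CPM in controls and 312 ± 20.2 with auxin, HoxB 403 ± 10.2 against 452 ± 65.6, HoxC 23.1 ± 0.184 against 20.4 ± 1.37, and HoxD 15.6 ± 1.23 against 22.6 ± 2.07. The day 2 auxin libraries stood further apart than those of the other differentiation groups, with an SD of 0.316 for the log2 ratio of the replicates over genes of at least 1 CPM, against 0.129 to 0.164. Replicate 2 was the higher of the pair for 12 of the 38 Hox genes and replicate 1 for the others. Without replicate 1, 13 Hox genes were higher and 5 lower, and without replicate 2, 17 and 6. The shared spread of the 16 differentiation libraries can understate that of the day 2 auxin pair, so p-values that use this pair may be too small. These include the differences of auxin effects between days 4 and 2. The part of this gap in the day 2 results was not tested.

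Hoxa13, the last HoxA gene and a limb and hindgut regulator, was at 1.602 and 1.79 CPM in controls and at 7.25 and 7.89 with auxin (2.17, SE 0.16, adjusted p = 8.2e-08). Hoxc9 was at 0.7498 and 0.796 against 3.51 and 2.59 CPM (1.98, SE 0.2033, adjusted p = 3.6e-06). Both genes had all auxin libraries above all controls. Hoxa11 was at 8.32 and 7.89 against 18.3 and 14.99 CPM (1.05, SE 0.16, adjusted p = 0.00018), though 35.0% of its annotated exon sequence lies opposite Hoxa11os and the strand setting of the counting is not known. Hoxd9, a gene of the trunk and limb, was at 1.38 and 1.77 against 3.57 and 2.88 CPM (1.04, SE 0.18, adjusted p = 0.00052). Hoxc11 had no count in the day 2 controls and 18 counts with auxin, at least 6.45-fold higher against the floor of 3 counts over the group.

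Of the 4 genes that were lower on day 2, Hoxc5 changed most, from 6.27 and 5.603 CPM in controls to 1.84 and 1.74 with auxin (-1.72, SE 0.14, adjusted p = 2.4e-07). Its annotated model starts inside Hoxc10, with which it shares 5.4% of its exon sequence. Hoxa4 went from 32.96 and 30.9 to 21.3 and 18.2 CPM (-0.68, SE 0.091, adjusted p = 5.6e-05). Hoxc4 went from 11.6 and 12.2 to 8.52 and 7.27 CPM (-0.58, SE 0.12, adjusted p = 0.002), and Hoxa3, a gene of the neck and pharyngeal arches, from 63.97 and 63.9 to 44.4 and 46.1 (-0.48, SE 0.086, adjusted p = 0.0008). Of their exon sequence 16% in Hoxa4 and 25.4% in Hoxa3 lies opposite other genes, so without a known strand setting these values are uncertain. The auxin and control libraries of the 4 genes did not overlap. They did overlap for Hoxb1, at 90.7 and 68.5 CPM with auxin, and for Hoxb8, at 81.5 and 70.04. Fitted with all 24 libraries, 4 genes were higher and 1 lower on day 2. Hoxa13, Hoxc9 and Hoxc5 were among them, while Hoxa11, Hoxd9, Hoxa4, Hoxc4 and Hoxa3 did not pass, at adjusted p of 0.54, 0.059, 0.33, 0.27 and 0.62.

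On day 4 more genes were lower than higher with auxin. Of the 38 genes 6 were higher and 15 lower, where 23.5% of all genes passed, 11.8% higher and 11.8% lower, and the Hox median was -0.22 against 0 for all genes. In HoxB 1 gene rose and 5 fell, in HoxC 2 rose and 4 fell, in HoxD none rose and 3 fell, and in HoxA 3 rose and 3 fell. By paralog number 1 gene rose and 7 fell among the 11 of numbers 1 to 4. Among the 11 of numbers 5 to 8 none rose and 7 fell, and among the 16 of numbers 9 to 13, 5 rose and 1 fell. The HoxC sum was 123 ± 3.68 CPM in controls and 64.5 ± 0.248 with auxin. HoxB gave 433 ± 0.212 against 368 ± 15.3 CPM, HoxD 28.9 ± 0.502 against 22.2 ± 0.106, and HoxA 236 ± 7.495 against 241 ± 0.212.

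Hoxc5 was at 16.95 and 15.9 CPM in the day 4 controls and 4.53 and 3.79 with auxin (-1.99, SE 0.12, adjusted p = 2.9e-09). Hoxc6, a gene of the brachial level, was at 7.63 and 7.802 against 2.46 and 2.701 CPM (-1.58, SE 0.12, adjusted p = 3.7e-08), and Hoxc4 at 39.6 and 40.8 against 16.2 and 15.2 (-1.37, SE 0.11, adjusted p = 8e-08). The neighbouring Hoxc8 went from 38.1 and 38.8 to 20.1 and 19.7 CPM (-0.96, SE 0.11, adjusted p = 3.9e-06). Control and auxin libraries were apart for each of these 4 genes. Hoxc9, the next gene in the cluster, was at 14.6 and 18.3 CPM in controls and at 14.9 and 14.3 with auxin, and these overlapped (-0.18, SE 0.13, adjusted p = 0.38). In HoxD, Hoxd4 was at 3.66 and 2.97 CPM in controls and at 0.679 and 0.986 with auxin (-1.98, SE 0.33, adjusted p = 0.00029), and the overlapping Hoxd3 at 1.29 and 1.11 against 0.165 and 0.197 (-2.71, SE 0.35, adjusted p = 2.1e-05). Hoxb8 was at 115 and 116 against 68.4 and 70.9 CPM (-0.74, SE 0.11, adjusted p = 0.00012). Hoxb1 was higher with auxin, at 36.9 and 33.7 against 49.5 and 53.3 CPM (0.54, SE 0.1013, adjusted p = 0.00086). None of these HoxD and HoxB genes overlapped.

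Most of the genes that rose on day 4 stood at the high-numbered ends of HoxA and HoxC. Hoxa13 was at 1.25 and 1.44 CPM in controls against 6.82 and 6.25 (2.27, SE 0.16, adjusted p = 3.2e-08), and Hoxa11 at 0.803 and 1.09 against 3.34 and 2.79 (1.67, SE 0.21, adjusted p = 1.9e-05). Hoxc10, a lumbar gene, was at 1.62 and 0.954 against 2.55 and 3.32 CPM (1.20, SE 0.24, adjusted p = 0.0013), and Hoxc13 at 1.81 and 3.12 against 3.78 and 5.098 (0.84, SE 0.22, adjusted p = 0.0091). All auxin libraries of these 4 genes were above all controls. Hoxc13 did not pass without the day 4 auxin replicate 2 (adjusted p = 0.14) or the day 4 control replicate 1 (adjusted p = 0.15). Fitted with all 24 libraries, 1 gene was higher and 5 were lower on day 4. Hoxa13, Hoxc4, Hoxc5 and Hoxc6 passed there, and Hoxa11, Hoxc10, Hoxc13 and Hoxd4 did not, at adjusted p of 0.12, 0.2, 0.087 and 0.098.

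On day 6, 7 genes were higher and 18 lower with auxin, where 29.2% of all genes passed, 14% higher and 15.2% lower, with a Hox median of -0.32 against 0.01. By paralog number 1 gene rose and 8 fell among numbers 1 to 4, none rose and 8 fell among numbers 5 to 8, and 6 rose and 2 fell among numbers 9 to 13. The HoxC sum was 146 ± 8.27 CPM in controls and 79.2 ± 4.28 with auxin, and the HoxB sum 329.6 ± 21.3 against 269 ± 11.1. Hoxc5 was at 17.7 and 20.7 CPM against 6.48 and 5.62 (-1.68, SE 0.11, adjusted p = 7.6e-09). Hoxc6 was at 17.9 and 19.1 against 6.29 and 6.198 (-1.58, SE 0.104, adjusted p = 6.7e-09), and Hoxc4 at 37.7 and 41.3 against 15.9 and 13.96 (-1.41, SE 0.11, adjusted p = 3.8e-08). The controls of these 3 HoxC genes were again all above the auxin libraries. Hoxd3 was at 1.84 and 2.11 CPM against 0.512 and 0.414 (-2.10, SE 0.29, adjusted p = 3.6e-05). Hoxb8 was at 71.98 and 84.6 CPM against 39.3 and 33.5 (-1.12, SE 0.11, adjusted p = 1.1e-06). Hoxa7, a trunk gene of which 20.4% of the exon sequence lies opposite Hoxaas3, was at 28.4 and 32.7 CPM against 16.3 and 14.4 (-1.0, SE 0.12, adjusted p = 5.3e-06). These were lower in every auxin library too.

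Among the 7 genes higher on day 6, Hoxa13 was at 1.58 and 1.18 CPM in controls against 5.96 and 6.47 (2.17, SE 0.16, adjusted p = 3.3e-08), and Hoxc13 at 1.89 and 2.61 against 5.898 and 5.78 (1.36, SE 0.21, adjusted p = 0.00012). Hoxc10 was at 2.74 and 2.55 against 5.35 and 6.11 CPM (1.11, SE 0.21, adjusted p = 0.00069), and Hoxa11 at 1.596 and 1.21 against 2.91 and 2.87 (1.04, SE 0.2021, adjusted p = 0.0008). All 4 genes had auxin libraries above the controls. Hoxb1 was at 11.9 and 12.4 CPM against 20.5 and 22.02 (0.79, SE 0.11, adjusted p = 2.7e-05) and Hoxb9 at 56.7 and 62.3 against 80.8 and 83.7 (0.45, SE 0.084, adjusted p = 0.00052). Hoxc12 also passed, at 0.0326 and 0.0274 CPM against 0.264 and 0.198, on few reads. In a fit of all 24 libraries 2 genes were higher and 6 lower on day 6. Hoxa13, Hoxc13, Hoxc4, Hoxc5, Hoxc6 and Hoxd3 passed there, while Hoxa11 and Hoxc10 did not, at adjusted p of 0.35 and 0.16.

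**Figure D2:**
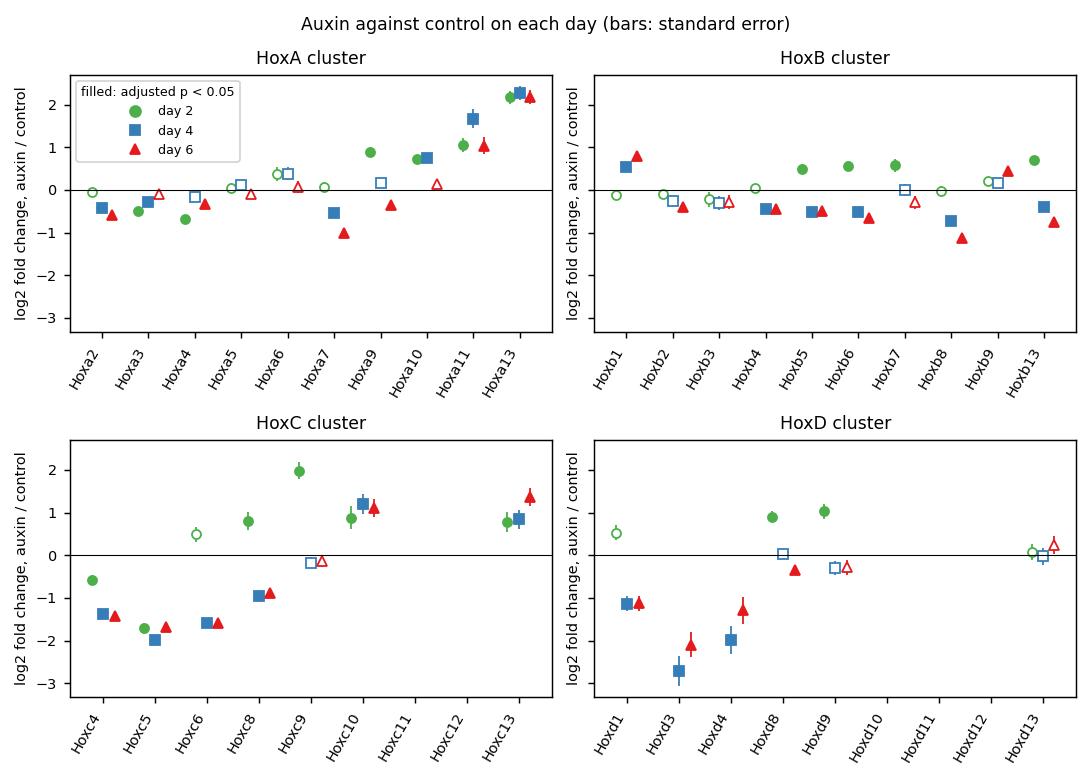
Log2 fold change of auxin over control (vertical axis) for each Hox gene in cluster order (horizontal axis) on days 2, 4 and 6, with bars for the standard error. Filled symbols passed at an adjusted p below 0.05, and genes with a mean below 0.5 CPM in the libraries compared are not drawn. Hoxa13 sits above 2 on all 3 days, and Hoxc4, Hoxc5, Hoxc6 and Hoxc8 sit below 0 on days 4 and 6.

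Each day has its own controls, so a gene that is lower with auxin can still rise with time. In auxin cells the mean of Hoxc8 was 1.47, 19.9 and 27.8 CPM on days 2, 4 and 6. That of Hoxb8 was 75.8, 69.7 and 36.4 CPM. Hoxa11, Hoxa13, Hoxc10 and Hoxc13 were higher with auxin on all 3 days, and Hoxc4 and Hoxc5 lower on all 3. Hoxb5, Hoxb6, Hoxb13 and Hoxc8 passed as higher on day 2 and as lower on days 4 and 6. A further 8 genes (Hoxa2, Hoxa7, Hoxb4, Hoxb8, Hoxc6, Hoxd1, Hoxd3 and Hoxd4) passed as lower on days 4 and 6 and did not pass on day 2. Hoxa5, at 74.8 and 86.1 CPM in the day 6 controls and 78.04 and 73.4 with auxin, did not pass on any day, nor did Hoxa6, Hoxb3 and Hoxd10 to Hoxd13. The remaining 13 genes passed on 1 or 2 of the days in other combinations. Tested as a difference of the auxin effects, 17 of 38 genes differed between day 4 and day 2, 2 upward and 15 downward, where 9.9% of all genes differed, 4.56% upward and 5.34% downward. Among genes with a mean of at least 1 CPM the largest downward differences were those of Hoxc9 (-2.16, SE 0.24, adjusted p = 2.6e-05), Hoxc6 (-2.07, SE 0.21, adjusted p = 9.2e-06) and Hoxc8 (-1.77, SE 0.23, adjusted p = 0.00012). The log2 fold change of Hoxc9 was 1.98 on day 2 and -0.18 on day 4, that of Hoxc6 0.49 and -1.58, and that of Hoxc8 0.81 and -0.96. The upward differences were those of Hoxa4 (0.51) and Hoxb1 (0.66). For Hoxa13 the difference was 0.10, SE 0.23, adjusted p = 0.86. Of the 38 genes Hoxc9 alone passed in a fit of all 24 libraries, while Hoxc6 and Hoxc8 were at adjusted p of 0.31 and 0.055.

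Between day 6 and day 4, Hoxa10 (-0.61, SE 0.11, adjusted p = 0.004) and Hoxa9 (-0.54, SE 0.14, adjusted p = 0.039) had different auxin effects and the other 36 genes did not pass, where 4.24% of all genes differed in either direction. The Hox share of 5.26% is near that of all genes. Hoxa10 was at 12.02 and 11.9 CPM in the day 4 controls against 20.6 and 19.95 with auxin, and at 15.9 and 15.5 in the day 6 controls against 17.96 and 16.9. Hoxa9, a gene of the thoracic and lumbar levels, was at 24.3 and 23.1 CPM in the day 4 controls against 27.5 and 26.3 with auxin. Its day 6 controls were at 33.8 and 31.8 CPM against 27.4 and 23.9 with auxin. On day 4 the auxin libraries of both genes lay above the controls, and on day 6 those of Hoxa9 lay below them. The Hoxa9 call was lost on leaving out any of 7 of the 8 libraries in turn, each but the day 6 auxin replicate 1, with adjusted p between 0.08 and 0.19. Neither gene passed in the fit of all 24 libraries, where the adjusted p was 1 for both.

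**Figure D3:**
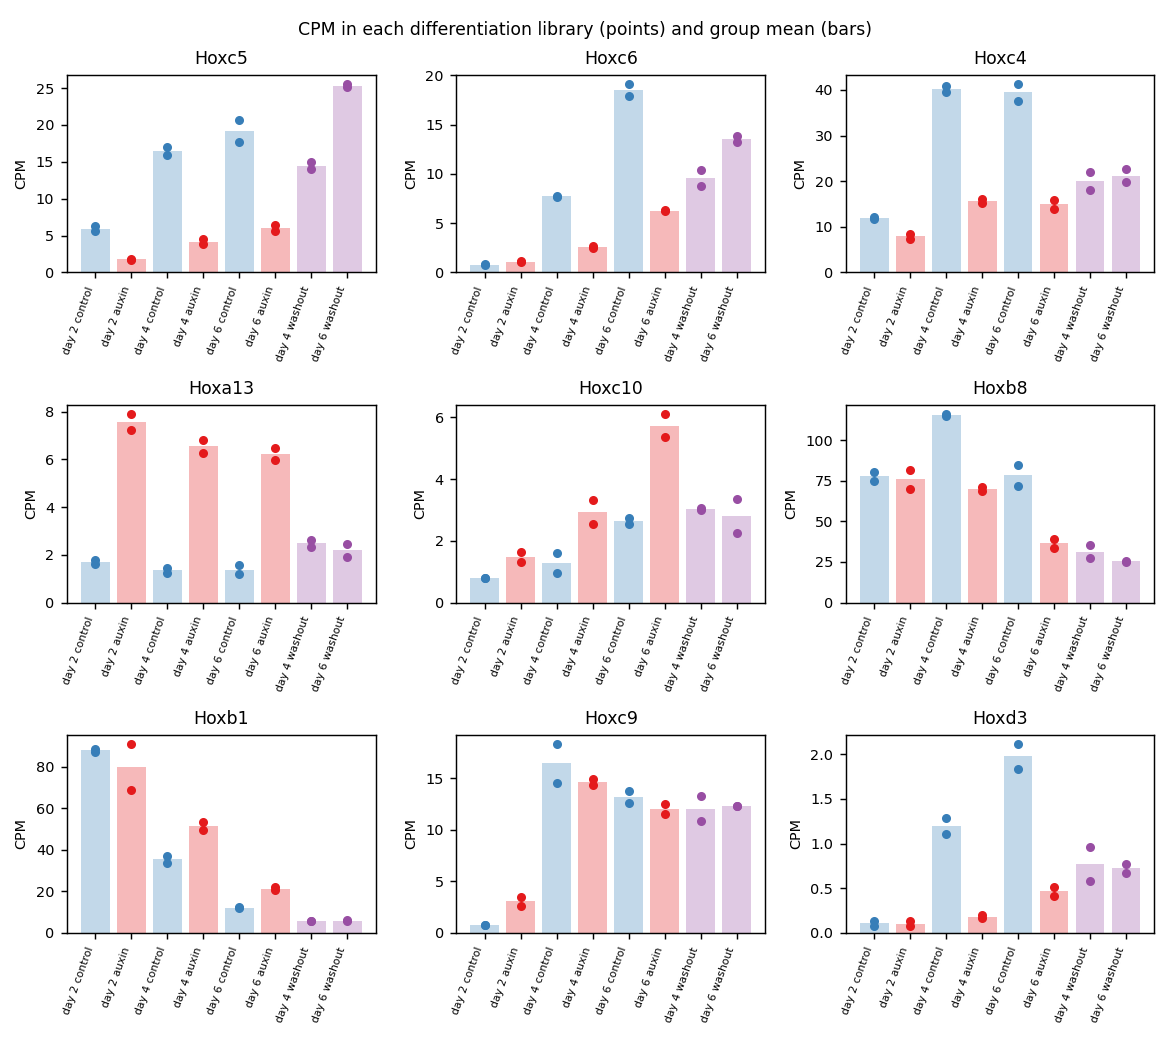
CPM (vertical axes, from 0) of 9 Hox genes in each of the 16 differentiation libraries (8 groups on the horizontal axes), with points for libraries and bars for the mean of 2. Hoxc4, Hoxc5 and Hoxc6 are lower in both auxin libraries on days 4 and 6, and Hoxa13 is higher in both on every day.

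Washout cells were compared with cells kept in auxin to day 6. By the times in the labels the day 4 washout was collected on day 6, and so has controls of the same day. The day 6 washout was collected 2 days later and has no controls of its own day, so in its comparison with day 6 auxin time and auxin cannot be told apart. All washout comparisons share day 6 auxin or day 6 control libraries with each other and with the day 6 auxin effect, so the values are given side by side and no agreement is read from them. The washout libraries also stood apart in their low counts. Of counts from 1 to 20, 59.6% to 60.5% were even, against 65.9% to 72.2% in the other differentiation libraries. The reason is not known, and its part in the washout values was not tested. In the day 4 washout 7 genes were higher and 12 lower than in day 6 auxin cells, where 34.6% of all genes passed, 17.3% each way. Against the day 6 controls 2 were higher and 20 lower, where 33.9% of all genes passed, 16.8% higher and 17.1% lower, with a Hox median of -0.44 against 0.

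Hoxc5 was at 14.97 and 13.99 CPM after the day 4 washout, against 6.48 and 5.62 in day 6 auxin cells (1.28, SE 0.11, adjusted p = 3.1e-07) and 17.7 and 20.7 in the controls (-0.40, SE 0.11, adjusted p = 0.0072). It lay between auxin and control cells with no overlap. Hoxc6 stood at 10.4 and 8.75 CPM, also between them (0.64, SE 0.11, adjusted p = 0.00023 against auxin, and -0.94, SE 0.1008, adjusted p = 2.3e-06 against controls). Hoxc4 stood at 21.9 and 18.1 CPM (0.44, SE 0.11, adjusted p = 0.0051 against auxin), a call that was lost without the day 4 washout replicate 1 (adjusted p = 0.095) or the day 6 auxin replicate 2 (adjusted p = 0.083). The HoxC sum was 98.7 ± 9.98 CPM. Hoxa2, a gene of the hindbrain and the second pharyngeal arch, was at 13.4 and 12.6 CPM against 9.103 and 9.55 in auxin (0.50, SE 0.099, adjusted p = 0.00097) and 12.9 and 14.96 in controls, which it overlapped. Hoxa13 was at 2.63 and 2.34 CPM against 5.96 and 6.47 in auxin (-1.30, SE 0.16, adjusted p = 8e-06) and 1.58 and 1.18 in controls (0.87, SE 0.18, adjusted p = 0.0011). It too lay between the groups. Hoxa11 was at 1.495 and 0.999 CPM against 2.91 and 2.87 in auxin (-1.20, SE 0.21, adjusted p = 0.00037). Hoxc13 was at 3.71 and 3.43 CPM, above the controls (0.67, SE 0.22, adjusted p = 0.029), and did not pass without the day 4 washout replicate 1, its replicate 2 or the day 6 control replicate 1 (adjusted p = 0.13, 0.072 and 0.24).

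Several genes lay below both auxin and control cells without overlap, among them Hoxa6, Hoxa9, Hoxa10, Hoxb1, Hoxb2, Hoxb6, Hoxb7, Hoxb9 and Hoxb13. Lack of overlap is not a call. In HoxB 6 genes lay below auxin cells without overlap, and 4 genes passed as lower than in auxin. The share of all genes without overlap was not counted. Hoxb1 was at 5.68 and 5.67 CPM after the day 4 washout, against 20.5 and 22.02 in auxin (-1.88, SE 0.12, adjusted p = 6.9e-09) and 11.9 and 12.4 in controls (-1.09, SE 0.12, adjusted p = 3e-06). Hoxa6, a trunk gene, was at 3.43 and 3.12 CPM against 7.599 and 7.099 in auxin (-1.15, SE 0.15, adjusted p = 1.7e-05) and 7.26 and 6.65 in controls. Hoxa9 was at 15.6 and 12.8 CPM against 27.4 and 23.9 in auxin and 33.8 and 31.8 in controls (-1.20, SE 0.1016, adjusted p = 1.7e-07 against controls). Hoxb8 was at 35.3 and 27.4 CPM, below the 71.98 and 84.6 of controls (-1.31, SE 0.12, adjusted p = 2.6e-07) and overlapping with auxin cells. Hoxd4 was at 1.42 and 0.913 CPM against 3.57 and 3.52 in controls (-1.60, SE 0.32, adjusted p = 0.001), and Hoxd3 at 0.965 and 0.586 against 1.84 and 2.11 (-1.35, SE 0.28, adjusted p = 0.0013). The HoxB sum was 191 ± 21.2 CPM, against 269 ± 11.1 in auxin and 329.6 ± 21.3 in controls, and 9 of its 10 genes passed as lower than in controls. Without the day 6 auxin replicate 2, 12 of the 38 genes in place of 19 differed between the day 4 washout and day 6 auxin. In a fit of all 24 libraries 1 gene was higher and 5 lower than in auxin, and 3 were lower than in controls. Hoxc5, Hoxb1, Hoxa13 and Hoxa6 passed there against auxin, and Hoxb8 and Hoxa9 against controls. Against auxin Hoxa2, Hoxa11, Hoxc4 and Hoxc6 did not pass there (adjusted p = 0.58, 0.22, 0.28 and 0.45), nor against controls Hoxa13, Hoxc13, Hoxd3 and Hoxd4 (adjusted p = 0.15, 0.15, 0.063 and 0.14).

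In the day 6 washout 7 genes were higher and 13 lower than in day 6 auxin cells, where 40.3% of all genes passed, 20.4% higher and 19.9% lower. Hoxc5 was at 25.6 and 25.1 CPM (2.08, SE 0.11, adjusted p = 7.9e-10) and Hoxc6 at 13.3 and 13.8 (1.13, SE 0.1048, adjusted p = 3.4e-07). Hoxa4 was at 28.1 and 26.9 CPM against 16.8 and 16.8 (0.73, SE 0.092, adjusted p = 1.1e-05), and Hoxc4 at 22.6 and 19.8 against 15.9 and 13.96 (0.52, SE 0.11, adjusted p = 0.0012). The washout libraries of these genes were above both auxin libraries. Hoxb1 was at 5.67 and 5.92 CPM (-1.86, SE 0.12, adjusted p = 4.3e-09), Hoxb9 at 26.6 and 27.1 against 80.8 and 83.7 (-1.60, SE 0.087, adjusted p = 9.1e-10), and Hoxa13 at 1.92 and 2.45 (-1.49, SE 0.16, adjusted p = 1.4e-06). Hoxc10 was at 2.27 and 3.36 against 5.35 and 6.11 CPM (-1.0, SE 0.21, adjusted p = 0.0013). These 4 genes were below auxin cells in every library. In a fit of all 24 libraries 1 gene was higher and 5 lower, Hoxc5, Hoxb1, Hoxb9 and Hoxa13 among them, while Hoxc6, Hoxa4, Hoxc4 and Hoxc10 were at adjusted p of 0.093, 0.1, 0.14 and 0.15. The summed ES markers were 465 and 468 CPM in the day 4 washout and 432 and 416 in the day 6 washout. The neuron markers summed to 25.7 and 25.98 and to 33.2 and 34.3 CPM, against 16.1 and 16.4 in day 6 auxin cells and 192 and 206 in the day 6 controls. Neural progenitor markers summed to 225 and 216 and to 246 and 229 CPM, against 153 and 161 in day 6 auxin cells. Their sums in the day 6 controls were 229.7 and 236 CPM. Of the 7, 2 were higher and 2 lower in the day 4 washout than in day 6 auxin cells (median log2 fold change -0.05). Against the day 6 controls 1 was higher and 5 lower (-1.98). In the day 6 washout 1 was higher and 3 lower than in auxin cells (-0.08). Of all genes 34.6%, 33.9% and 40.3% passed in these comparisons. The sums thus do not stand for most of the 7 markers. Mesoderm or mesenchyme markers summed to 208 and 218 and to 329 and 311 CPM, against 150.2 and 137 in day 6 auxin cells and 244 and 258 in controls. Of the 10, 7 were higher and 1 lower in the day 4 washout than in auxin cells. Against the day 6 controls 4 were higher and 3 lower (0.10), unlike their sum. In the day 6 washout 6 were higher and 1 lower than in auxin cells. Endoderm markers summed to 611 and 649 and to 788 and 744 CPM, against 619 and 611 in auxin and 516 and 524 in controls. The part of these markers in the Hox values was not tested.

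**Figure D4:**
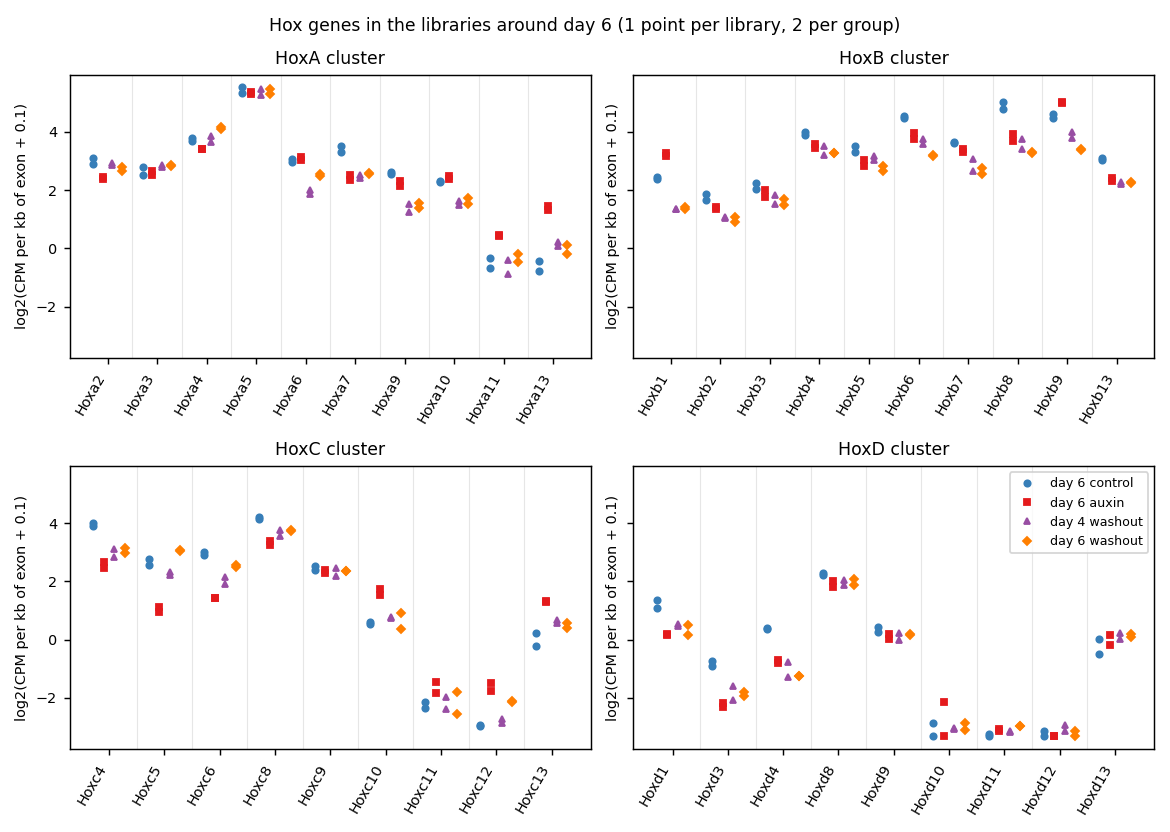
Level of each Hox gene (horizontal axes, by cluster) as log2 of CPM per kb of exon plus 0.1 (vertical axes) in each library of day 6 control, day 6 auxin, day 4 washout and day 6 washout. Both washout groups lie above auxin for Hoxc5 and Hoxc6 and below both other groups for Hoxb1 and Hoxb9 among others.

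In ES cells held in auxin none of the 33 Hox genes with enough counts passed at 24, 48 or 96 h in edgeR's quasi-likelihood test on the 8 ES libraries, where 0% of all tested genes passed. An unadjusted p below 0.05 was found for 3, 3 and 6 of the 33 (9.09%, 9.09% and 18.2%), where 2.69%, 5.1% and 8.68% of all 20361 tested genes had one, and DESeq2 also called 0 of the Hox genes at each time. Replicate numbers pair the ES libraries, and with the number as a replicate block the common dispersion was 0.0511 in place of 0.134. In that fit 23, 40 and 621 of all genes passed at the 3 times, 0 of them Hox genes. Of the 33, 5, 8 and 9 then had an unadjusted p below 0.05 (15.2%, 24.2% and 27.3%), against 6.17%, 12% and 19.3% of all genes. Hoxa6, Hoxb2, Hoxb3, Hoxd3 and Hoxd4 had too few counts to be tested. The summed level of the 38 genes was 71.9 ± 21.4 CPM at 24 h, 78.9 ± 18.7 at 48 h and 66.1 ± 7.13 at 96 h. The HoxC sum was 8.66 ± 0.0339, 10.4 ± 1.66 and 14.1 ± 0.757 CPM, against 7.85 ± 0.778 at 0 h. For HoxB it was 28.1 ± 9.01, 30.6 ± 1.55 and 22.3 ± 1.03 CPM, against 16.7 ± 2.503 at 0 h. Each auxin library of HoxB was above both 0 h libraries. HoxA gave 20.1 ± 8.195, 24.3 ± 12.06 and 15.5 ± 9.37 CPM, against 21.3 ± 0.106. HoxD gave 15.1 ± 4.115, 13.6 ± 3.465 and 14.1 ± 1.97 CPM, against 17.4 ± 0.149. Hoxc5 was at 0.0789 and 0.284 CPM at 0 h and at 0.508 and 1.18 at 96 h (2.12, SE 0.83, adjusted p = 0.51). Hoxd8 was at 2.604 and 2.8 CPM at 0 h and at 7.71 and 4.52 at 96 h (1.17, SE 0.41, adjusted p = 0.45). Hoxd13 was at 11.6 and 9.21 CPM at 0 h, 5.42 and 9.002 at 24 h, 4.01 and 7.92 at 48 h, and 3.81 and 5.06 at 96 h (-1.24, SE 0.45, adjusted p = 0.46 for 96 h). With the block the adjusted p at 96 h was 0.19 for Hoxc5, 0.11 for Hoxd8 and 0.093 for Hoxd13. At 48 h the lowest with the block were those of Hoxb6, Hoxb8 and Hoxb5 (0.096, 0.14 and 0.15), all higher than at 0 h and at low levels. Hoxd13 was lower at 96 h than at 0 h in both replicates. Hoxb13 was at 1.54 and 9.44 CPM at 0 h and at 5.67 and 17.1 at 24 h, higher at 24 h within each replicate number (with the block 1.21, SE 0.45, adjusted p = 0.65). Counts were also simulated with the means and dispersion trend of the 8 ES libraries. Changes between 96 h and 0 h were planted in genes above a mean of 1 CPM, and 9% of 2-fold and 67% of 4-fold changes were found without the block. In a single ES library 14 to 21 of the 38 Hox genes were above 1 CPM, so these shares do not cover the others. Each simulated gene lay on the dispersion trend, so the shares may not hold for real genes that stray from it. In a fit of all 24 libraries, whose dispersion of 0.0439 is below the 0.134 of the ES libraries alone without the block, 1, 3 and 7 genes passed at 24, 48 and 96 h. The share of all genes that passed in that fit is not given here, so these counts are not read as a Hox result.

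Lists of genes that act with or on Hox genes were read from the same fits, and their counts stand beside the shares of all genes that passed. These were 18.2% from ES cells to day 2, 52.1% from day 2 to day 4, and 18.3%, 23.5% and 29.2% with auxin on days 2, 4 and 6. None of the lists was tested as a set. Of 9 genes of TALE homeodomain proteins, the cofactors with which Hox proteins bind DNA, 5 rose from ES cells to day 2, and 7 rose and 1 fell from day 2 to day 4. With auxin 1 was higher and 4 lower on day 2, none was higher and 5 lower on day 4, and none was higher and 6 lower on day 6, where 8.43%, 11.8% and 15.2% of all genes were lower. On day 6 the mean of Meis3 was 36.5 CPM in controls and 21.2 with auxin (-0.79, SE 0.078, adjusted p = 6.8e-07), and that of Pknox2 20.5 and 7.21 (-1.52, SE 0.093, adjusted p = 3e-09). Of 18 genes of retinoic acid synthesis, response and breakdown, 11 rose from ES cells to day 2 and none fell, where 10.3% of all genes rose. Among them were Rarb, a receptor gene that retinoic acid itself induces (5.09, SE 0.26, adjusted p = 3.9e-10), and Cyp26a1, which breaks retinoic acid down (5.37, SE 0.26, adjusted p = 2.9e-10). With auxin 8 of the 18 were higher and 4 lower on day 2, 6 and 6 on day 4, and 6 and 10 on day 6, where 18.3%, 23.5% and 29.2% of all genes passed in either direction. Aldh1a2, the main retinoic acid synthase of the trunk, had a mean of 11.1 CPM in the day 4 controls and 38.9 with auxin (1.80, SE 0.096, adjusted p = 1.1e-09), and of 113 and 43.6 on day 6 (-1.39, SE 0.089, adjusted p = 5.3e-09).

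Among 11 tested genes of Cdx factors and other posterior signals, 3 were higher and 3 lower with auxin on day 2, 3 and 5 on day 4, and 1 and 4 on day 6, against the same 18.3%, 23.5% and 29.2% of all genes. The log2 fold change of Cdx1 was 2.20 on day 4 and 2.19 on day 6, and that of Cdx2 -1.59 and -1.76, all 4 past the threshold. Of 24 Polycomb genes 5 were higher and 4 lower on day 4, and 4 and 4 on day 6. Of 11 Trithorax and H3K27 demethylase genes none passed on day 4 and 1 was lower on day 6. These counts stand against 23.5% and 29.2% of all genes, to which 8 of 24 on day 6 is near. Of 16 tested protein-coding neighbours of the clusters, 4 were higher and 2 lower with auxin on day 4, and 4 and 2 on day 6, against 23.5% and 29.2% of all genes. Compared with day 6 auxin cells, 1 was higher and 9 lower in the day 4 washout, where 17.3% of all genes were lower. In the day 6 washout, which has no controls of its own day, 1 was higher and 11 lower, where 19.9% of all genes were lower. This was not particular to the neighbours. In that comparison 3 of the 24 Polycomb genes were higher and 12 lower, and none of the 11 Trithorax and demethylase genes was higher and 6 were lower. Of the 9 TALE genes 2 were higher and 1 lower, of the 18 retinoic acid genes 4 and 6, and of the 11 Cdx and posterior genes 4 and 2. Skap1, a neighbour of HoxB, had a mean of 1.13 CPM in the day 6 controls and 4.83 with auxin (2.09, SE 0.16, adjusted p = 5.3e-08), and Calcoco2 of 33.7 and 77.8 (1.19, SE 0.075, adjusted p = 4.1e-09). Of 12 tested noncoding and opposite-strand genes inside the clusters, 2 were higher and 2 lower with auxin on day 4, and 3 and 3 on day 6. These stand against 23.5% and 29.2% of all genes. Where the strand setting of the counting is not known, their reads cannot be told apart from those of the Hox genes opposite.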

How the data were processed

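RNA was sequenced from 24 libraries in 12 groups of 2. The authors deposited 1 table of whole read counts per gene, made with STAR, HTSeq and edgeR on mm10 per the submitters' processing notes. Gene annotation, strand setting and tool versions are not given in the labels. Between 59.6% and 78.0% of counts from 1 to 20 in a library were even, and the reason is not given, so halved counts were tried as an alternative. The share was 59.6% to 60.5% in the washout libraries and 65.9% to 72.2% in the other differentiation libraries. The table has 1 row with no gene name, which was left out. Exon lengths, overlaps and gene positions came from GENCODE vM21, which gave an exon union for 91.9% of names.

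The counts were fitted with edgeR 4.0.16 (R 4.3.3, limma 3.58.1) by the quasi-likelihood test on group means, with trimmed mean of M-values scaling, filterByExpr (minimum count 10, minimum total 15) and Benjamini-Hochberg adjustment over all tested genes. A gene passed at an adjusted p below 0.05. Comparisons among differentiation groups used those 16 libraries (22587 genes tested), ES comparisons the 8 ES libraries (20361), and day 2 control against ES cells all 24 (23831), 14 comparisons in all. SE is the absolute log2 fold change over the root of F. Values of every library are given for the 2 genes highest per kb in each cluster and for up to 4 passing genes each way per auxin or washout comparison, with a mean of at least 1 CPM and groups that did not overlap, or up to 3 per difference of effects. Other members were named freely. The members and lists were chosen with earlier results of these data known, and 1 row that meets the name rule is not reported here.

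Alternatives were DESeq2 1.42.0, relative log expression scaling, no filter, halved counts, a replicate block, other sets of libraries in the fit and leaving out each library. Replicate numbers paired the ES groups, where libraries of the same number deviated together in all 6 pairs of groups (correlation 0.18 to 0.79), and did not pair the differentiation groups (28 pairs, -0.28 to 0.24). Counts were simulated with the means and dispersion trend of the 16 differentiation libraries, and changes between day 4 auxin and control were planted in genes above a mean of 1 CPM. Of these, 95% of 2-fold and 100% of 4-fold changes were found, and 17 of 22013 unchanged genes were called. Each simulated gene lay on the dispersion trend, with the same dispersion in all groups. The shares are thus not error rates of the calls on the real libraries.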

Additional observations from a re-analysis of the deposited data

Results flagged for a closer look

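The auxin effect differed between days 4 and 2, by a test of the difference itself, for 17 of 38 Hox genes, where 9.9% of all genes differed. In the fit of all 24 libraries Hoxc9 alone passed. All of these differences use the day 2 auxin pair, whose libraries stood further apart than those of other groups. The differences below are log2 values of the day 4 effect minus the day 2 effect. In HoxA they were 0.51 for Hoxa4, -0.62 for Hoxa7 and -0.72 for Hoxa9. In HoxB they were 0.66 for Hoxb1, -0.48 for Hoxb4, -1.0 for Hoxb5, -1.06 for Hoxb6, -0.71 for Hoxb8 and -1.09 for Hoxb13. In HoxC they were -0.79 for Hoxc4, -2.07 for Hoxc6, -1.77 for Hoxc8 and -2.16 for Hoxc9. In HoxD they were -1.67 for Hoxd1, -2.70 for Hoxd3, -0.88 for Hoxd8 and -1.34 for Hoxd9. Between days 6 and 4 the auxin effect differed by -0.54 for Hoxa9 and -0.61 for Hoxa10. These are 5.26% of the Hox genes, near the 4.24% of all genes that differed, and neither passed in the fit of all 24 libraries.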

How the results depend on the processing

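The counts of Hox genes that passed depended most on which libraries gave the spread. With all 24 libraries in 1 fit the counts were 5 for auxin on day 2, 6 on day 4 and 8 on day 6 (19, 21 and 25 with the 16 differentiation libraries), 16 from day 2 to day 4 (30) and 3 from day 4 to day 6 (17). They were 6 for the day 4 washout against auxin (19), 3 against controls (22), 6 for the day 6 washout (20), and 1 and 0 for the differences of auxin effects between days 4 and 2 (17) and days 6 and 4 (2). In ES cells they were 1, 3 and 7 at 24, 48 and 96 h (0 each). Day 2 against ES cells gave 16 with the 4 libraries compared (27 with all 24). The shares of all genes that passed in these alternative fits are not given here. The counts thus show only how the calls depend on the fit. Of 51 named fold changes 27 lost their call in the fit of all 24 libraries and none reversed. Without a filter on low counts 4 genes differed between the day 6 and day 4 effects and 1 passed at 48 h in ES cells.

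Leaving out each library in turn gave 14 to 23 genes for auxin on day 2, 16 to 20 on day 4, 20 to 23 on day 6, 22 to 29 from ES cells to day 2, 26 to 29 from day 2 to day 4 and 12 to 14 from day 4 to day 6. It gave 12 to 15 for the day 4 washout against auxin, 19 to 21 against controls, 17 to 19 for the day 6 washout, 13 to 19 and 1 to 2 for the differences of effects, and 0 in ES cells. The replicate block gave 19, 21 and 25 genes for auxin on days 2, 4 and 6 and 0 in ES cells, changed none of the 51 named calls, and let 23, 40 and 621 of all genes pass in ES cells at 24, 48 and 96 h. DESeq2, relative log expression scaling, halved counts and no filter also kept all 51. Libraries in pairs and unstated culture origin limit each p-value, and genes of few reads limit the HoxD values.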
